A study of Rattus norvegicus with 35 samples.

Results

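Voltage-gated ion channels are membrane proteins whose pore opens when the membrane potential changes. Genes for their subunits were picked by symbol: sodium channel alpha and beta subunits (Scn), voltage-gated potassium channel subunits (Kcna to Kcnd, Kcnf, Kcng, Kcnq, Kcns, Kcnv and Kcnh), calcium channel subunits (Cacna, Cacnb and Cacng) and the hyperpolarization-activated channels (Hcn). Of the 14217 genes with a single gene symbol on the array, 70 were members. Each gene was represented by 1 probe set, the one with the highest mean over all 35 arrays. The rule used no difference between groups.

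Sodium channels drive the rising phase of the action potential, and in the retina ganglion cells, whose axons form the optic nerve, are the main spiking output neurons. Potassium channels repolarize the membrane and set how fast a neuron can fire again. Calcium channels open on depolarization and trigger transmitter release, which in photoreceptors and bipolar cells is graded and continuous. The alpha subunit forms the pore, while beta, alpha2delta and the silent potassium subunits bind to it and change its gating or its transport to the membrane.

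Retinas came from adult female Sprague-Dawley rats that were naive, that is not operated, or had the left optic nerve cut within the orbit (intraorbital nerve transection, IONT) or crushed there (intraorbital nerve crush, IONC). The 35 arrays were 5 naive arrays, 15 IONT arrays and 15 IONC arrays. IONT retinas were taken 12 h, 48 h or 7 d after the lesion (3 arrays per time) or after 24 h, 3 d or 15 d (2 arrays per time). IONC retinas (3 arrays per time) were taken at each of these times except 15 d. Every array held a pool of 4 retinas, none from the same animal, so the p-values describe the spread between pools, and no sham-operated group was analysed here. In whole retina, fewer cells of a type and less RNA per cell cannot be told apart.

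The arrays fell into sets that no label names. In 27 arrays the β-actin control signal was 1.53 to 1.93 higher (log2) at the 3′ end of the transcript than at the 5′ end, and in 8 arrays, naive replicates 4 and 5 and the IONT arrays of 24 h, 3 d and 15 d, it was 2.61 to 3.65 higher. Each lesion group was therefore compared with the naive arrays of its own set, naive replicates 1 to 3 or naive replicates 4 and 5. The comparisons with naive thus share naive arrays and are not independent of each other. How many of all genes lay without overlap was not computed. The array IONC 12 h replicate 2 stood apart. Its median correlation with the other arrays was 0.871 against 0.962 to 0.992 for the other 34, and the SD of its log2 values was 2.30 against 2.89 to 3.03. Results are given with this array and without it.

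Values are log2 signals per probe set. Those of 26 members averaged 2.5 or less, near the floor of the scale, and 28 members averaged above 4. These 28 were 4 of 9 sodium channel alpha subunits, 2 of 3 sodium channel beta subunits, 9 of 13 Kv1 to Kv4 subunits, 1 of 7 silent Kv subunits, 3 of 8 subunits of the EAG, ERG and ELK group, 3 of 10 calcium channel alpha1 subunits, 2 of 2 alpha2delta subunits, 2 of 4 calcium channel beta subunits and 2 of 8 gamma subunits. None of the 3 Kv7 and none of the 3 HCN members did. A change was called at an adjusted p under 0.01 (limma, Benjamini-Hochberg over 31042 probe sets), a log odds B above 0 and at least 1.2-fold.

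Few channel genes passed this rule after either lesion. After IONT 4 of 70 members were called in at least 1 of 6 comparisons with naive, 2 higher (Kcnv2, Cacnb4) and 2 lower (Scn1a, Cacnb2), where 5.75% of all genes were called. After IONC 2 members were called at any of 5 times, both lower (Cacnb2, Cacng3), where 5.94% of all genes were called. Without IONC 12 h replicate 2 the spread shared by all groups was smaller, and 8 members were called after IONT, 2 higher and 6 lower, against 17.5% of all genes, and 3 members after IONC, all lower (Scn1a, Scn2a, Cacnb2), against 11.7%. The members' shares, 5.71% and 2.86% with all arrays and 11.4% and 4.29% without that array, were at or below those of all genes in each case. These shares are not matched for signal, as 28 of 70 members averaged above 4, against 9383 of 14217 genes. The shares called among genes above 4 were not computed.

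In single comparisons the members' share lay on both sides of the background. With all arrays 0 members were called after IONT at 12 h, 3 d and 15 d, where the background was 1.29%, 0.795% and 1.81%. There 3, 5 and 10 members had an unadjusted limma p under 0.05, as did 8.82%, 10.8% and 13.1% of all genes. After IONC at 24 h, 48 h, 3 d and 7 d 0 members were called, with backgrounds of 1.04%, 1.54%, 0.394% and 0.689%. There 5, 10, 7 and 3 members had an unadjusted limma p under 0.05, as did 10.9%, 14.5%, 9.12% and 8.22% of all genes. The called members were 1 at IONT 24 h (background 0.499%), 1 at IONT 48 h (2.64%), 2 at IONT 7 d (1.2%) and 2 at IONC 12 h (5.22%). With 1 member being 1.43%, the shares at IONT 24 h and 7 d rested on 1 and 2 genes.

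**Figure D1:**
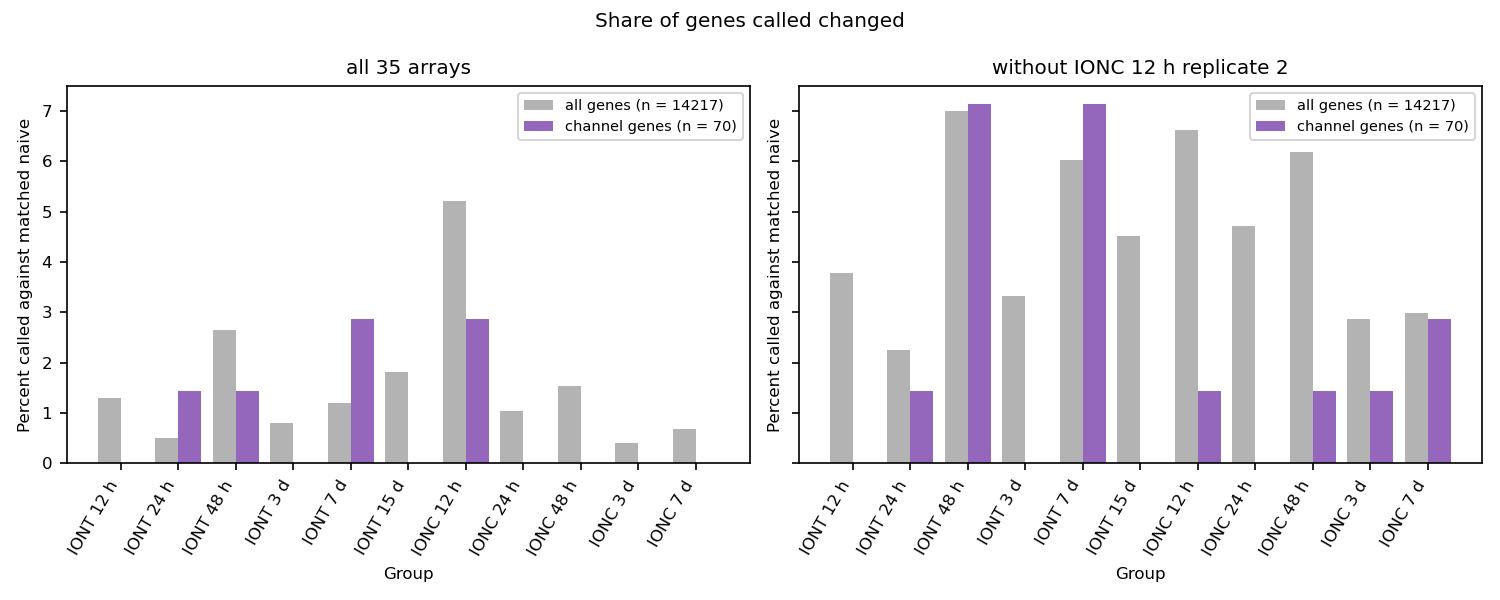
Percent of all 14217 genes (grey bars) and of the 70 channel genes (purple bars) called against matched naive arrays, for each lesion and time on the horizontal axis, with all 35 arrays on the left and without IONC 12 h replicate 2 on the right. One channel gene is 1.43%, and the purple bars reach at most 7.14%, at IONT 48 h and 7 d without that array.

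Scn2a and Scn1a had the largest absolute mean difference from naive of all members over the 11 comparisons, -1.25 and -0.77. Scn1a encodes Nav1.1, a pore subunit found at axon initial segments. Its log2 signal in naive replicates 1 to 3 was 8.61, 8.54 and 8.30, and in naive replicates 4 and 5 8.93 and 8.73. After IONT it was 8.39, 8.15 and 8.16 at 12 h, 8.88 and 9.0 at 24 h, 7.17, 7.83 and 7.33 at 48 h, 7.98 and 8.04 at 3 d, 7.27, 6.57 and 6.64 at 7 d, and 8.13 and 8.22 at 15 d. After IONC it was 8.22, 6.49 and 8.71 at 12 h, 8.41, 8.42 and 8.45 at 24 h, 6.88, 7.62 and 7.88 at 48 h, 7.13, 7.44 and 7.31 at 3 d, and 7.06, 7.44 and 7.11 at 7 d. From 48 h on every lesion array lay below its naive arrays after both lesions, while at 12 h and 24 h the groups overlapped.

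The Scn1a signal fell by 1.65 ± 0.34 (SE) at IONT 7 d, with a limma adjusted p of 0.00714 and a 95% interval of -2.35 to -0.95. No other Scn1a comparison with naive was called with all arrays. The differences were -1.04 at IONT 48 h (limma adjusted p 0.109), -0.82 at IONT 3 d, -0.65 at IONT 15 d, -1.02 at IONC 48 h, -1.19 at IONC 3 d and -1.28 at IONC 7 d (limma adjusted p 0.0709). When IONC 12 h replicate 2 was left out the same Scn1a differences were called at IONT 48 h (limma adjusted p 0.0017), IONT 7 d (1.92e-05), IONC 48 h (0.00232), IONC 3 d (0.00162) and IONC 7 d (0.000591). At IONT 15 d the Scn1a difference was smaller than at 7 d, but those groups have different naive arrays, and the change between 7 d and 15 d was not tested.

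Scn2a encodes Nav1.2, a pore subunit of unmyelinated axon stretches. Its log2 signal was 5.38, 5.26 and 5.79 in naive replicates 1 to 3 and 6.31 and 5.58 in naive replicates 4 and 5. After IONT it was 4.63, 5.00 and 4.24 at 12 h, 5.28 and 4.91 at 24 h, 4.62, 3.81 and 3.37 at 48 h, 4.02 and 4.42 at 3 d, 4.35, 3.55 and 3.92 at 7 d, and 4.49 and 4.52 at 15 d. After IONC it was 5.18, 2.93 and 5.27 at 12 h, 5.55, 5.15 and 4.89 at 24 h, 3.46, 3.94 and 5.31 at 48 h, 4.13, 4.00 and 4.50 at 3 d, and 3.58, 3.51 and 3.42 at 7 d. The mean lay below naive in all 11 comparisons, and every IONT array lay below every naive array of its set.

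No Scn2a difference was called with all arrays. It was -0.86 at IONT 12 h, with a 95% interval of -1.82 to 0.11, -1.54 at IONT 48 h and 7 d, and -1.97 ± 0.47 (SE) at IONC 7 d, where the limma adjusted p was 0.0329. Scn2a without IONC 12 h replicate 2 was called lower at IONT 48 h (limma adjusted p 0.00541), IONT 7 d (0.00458) and IONC 7 d (0.00145).

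The other sodium channel members had smaller absolute mean differences over the 11 comparisons, though Scn7a moved by more than 1 in some of them. Scn2b encodes the beta2 subunit, which is linked to the pore subunit by a disulfide bond. Its log2 signal was 8.98 to 9.30 in naive replicates 1 to 3, 8.35 to 8.66 at IONT 48 h and 8.40 to 8.53 at IONT 7 d, without overlap. These differences of -0.69 and -0.70 were not called with all arrays (limma adjusted p 0.226 and 0.254) and were called without IONC 12 h replicate 2 (0.0027 and 0.00249). Scn7a, which encodes the sodium-sensing channel Nax, lay above its naive arrays at IONT 12 h, 24 h and 48 h and at IONC 12 h and 24 h, with differences of 0.59, 1.21, 1.11, 1.22 (1.62 without replicate 2) and 0.94, and was called in no comparison. Its mean lay below naive in 2 of 11 comparisons, by -0.51 at IONT 7 d and -0.43 at IONC 3 d. The 5 naive values of Scn7a were 4.01 to 4.82. Scn4b, the gene of the beta4 subunit, had naive values of 2.14 to 4.38 and was at 2.11 to 2.51 in all 6 arrays of IONT 24 h, 3 d and 15 d.

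With IONC 12 h replicate 2 left out the background was 7% at IONT 48 h and 6.02% at IONT 7 d. In each, 5 members were called, which is 7.14% of the 70 and near that background. At IONT 48 h these were Cacnb2, Kcna2, Scn1a, Scn2a and Scn2b, all lower, and at IONT 7 d they were Scn1a, Scn2a, Scn2b and Kcnc2, lower, and Kcnv2, higher. After IONC 1 member was called at 12 h (Cacnb2, background 6.63%), 1 at 48 h (Scn1a, 6.18%), 1 at 3 d (Scn1a, 2.87%) and 2 at 7 d (Scn1a and Scn2a, 2.98%). At IONT 24 h 1 member was called (Cacnb4, 2.24%). At IONT 12 h, 3 d and 15 d and at IONC 24 h 0 members were called, with backgrounds of 3.78%, 3.32%, 4.51% and 4.72%.

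**Figure D2:**
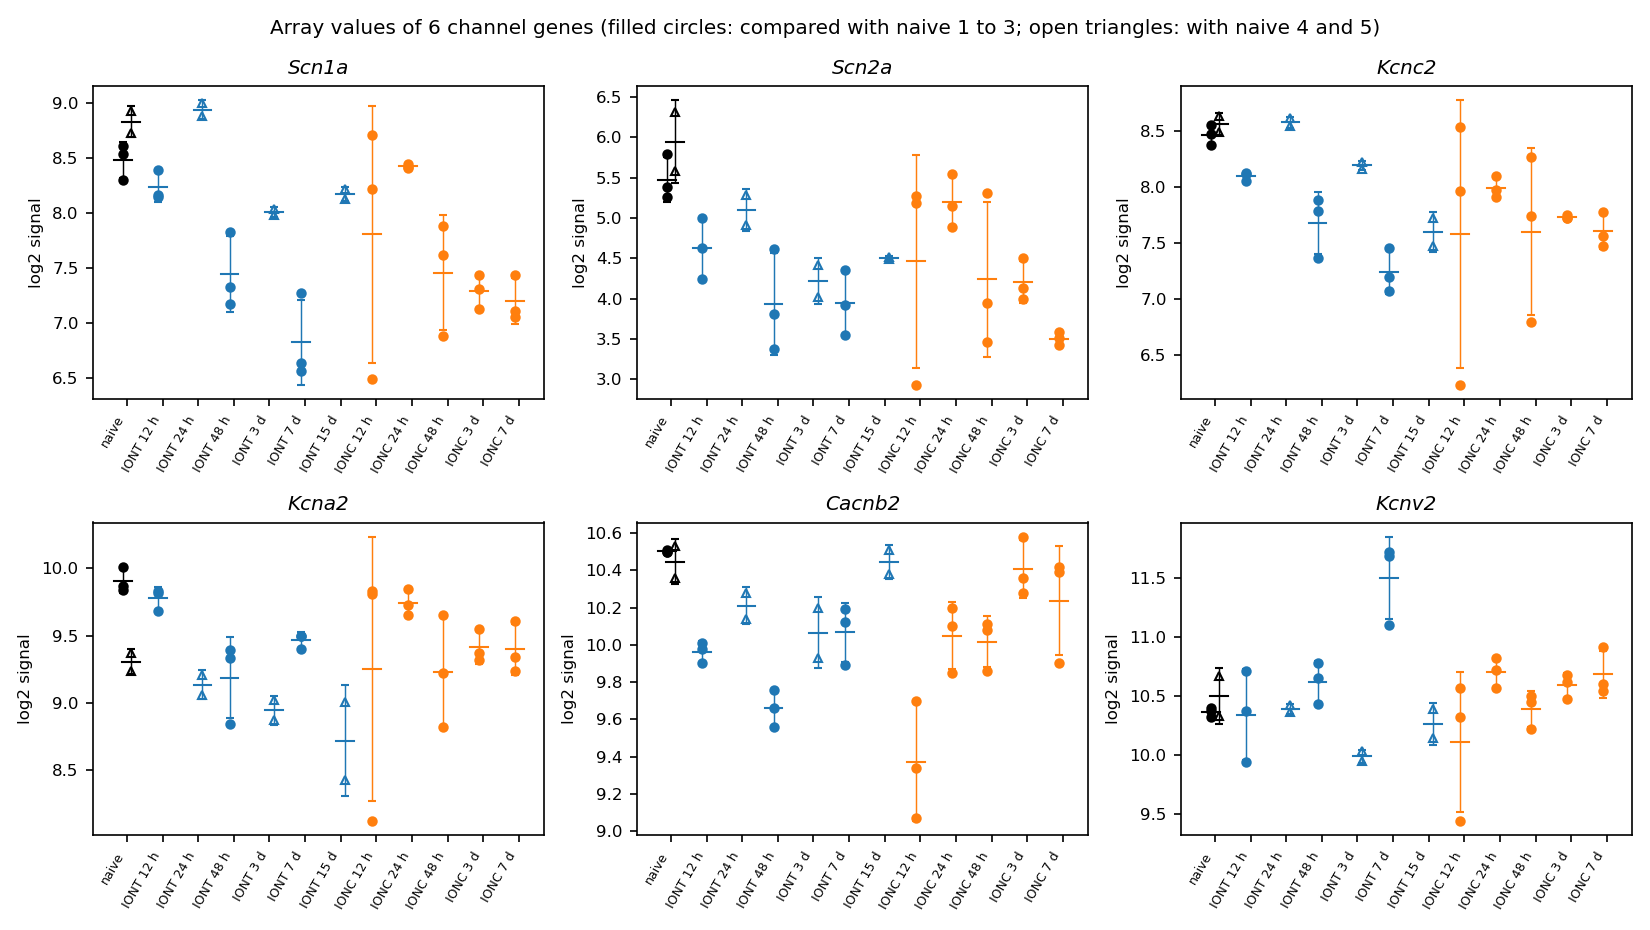
Log2 signal of 6 channel genes in every array (vertical axes) by group (horizontal axes), with the group mean as a line and the SD as a bar, naive in black, IONT in blue and IONC in orange. Scn1a lies between 6.57 and 7.27 at IONT 7 d against 8.30 to 8.61 in naive replicates 1 to 3, and the lowest point at IONC 12 h in each of the 6 panels is replicate 2.

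Ganglion cell markers fell over the same days. Of 12 measured genes of a ganglion cell list, which holds neurofilaments, Slc17a6 (the vesicular glutamate transporter of these cells) and Rbpms, 8 were called lower after each lesion. The median difference over the list was -0.91 at IONT 48 h, -2.53 at IONT 7 d, -3.77 at IONT 15 d and -2.40 at IONC 7 d. At IONT 15 d, where this median was lowest, Scn1a differed from naive by -0.65 and Scn2a by -1.44. The log2 of the list's summed signal was 13.75 to 13.81 in naive replicates 1 to 3, 11.53 to 11.83 at IONT 7 d and 11.84 to 12.24 at IONC 7 d. In naive replicates 4 and 5 it was 13.51 to 13.60, and at IONT 15 d 10.92 to 11.17. The part of these cells in the sodium channel differences was not tested. The transcription factor Pou4f1, a defining marker, was at 3.03 ± 0.24 (SD, n = 5) in the naive arrays, near the floor, and did not pass the test in any comparison.

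Some microglia and macrophage markers rose. Of 9 measured genes 3 (C1qb, Cd74 and Csf1r) were called higher after each lesion, and the summed signal went from 7.51 to 7.83 in naive replicates 1 to 3 to 9.33 to 9.84 at IONT 7 d and 9.26 to 10.20 at IONC 7 d. Of 9 amacrine cell markers 0 were called by limma after either lesion with all arrays (6 had an unadjusted p under 0.05 at some time), and 1 lower after each lesion without IONC 12 h replicate 2. At IONC 12 h alone 46.4% of all genes had an unadjusted limma p under 0.05.

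**Figure D3:**
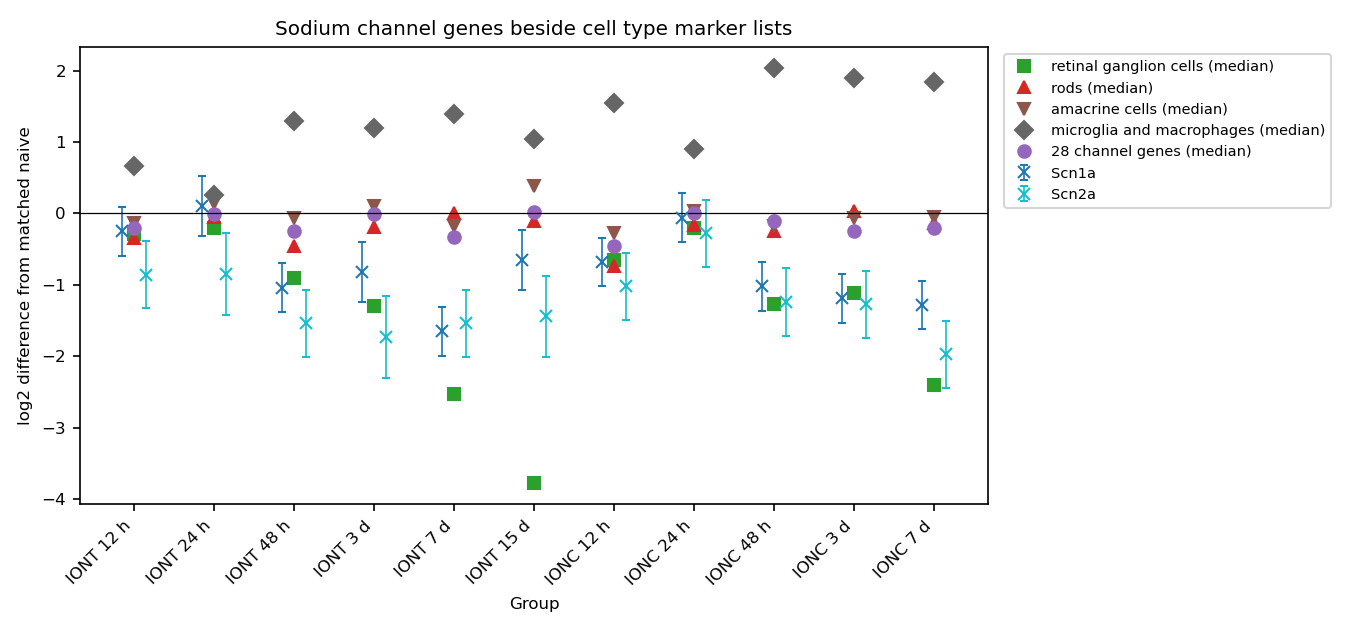
Log2 difference from matched naive arrays (vertical axis) for each lesion and time (horizontal axis). Crosses with SE bars are Scn1a and Scn2a, and the other symbols are medians over 28 channel genes and over 4 cell type marker lists. The ganglion cell median is -2.53 at IONT 7 d, where Scn1a is at -1.65, Scn2a at -1.54 and the channel gene median at -0.33.

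Among potassium channel genes, Kcnc2 had the largest absolute mean difference from naive over the 11 comparisons, -0.69. It encodes Kv3.2, a channel that repolarizes fast-spiking neurons quickly. Its log2 signal was 8.37 to 8.55 in naive replicates 1 to 3, and 7.45, 7.07 and 7.19 at IONT 7 d. It was 7.72 to 7.75 at IONC 3 d and 7.47 to 7.77 at IONC 7 d. The arrays lay below naive in 9 of 11 comparisons, which share naive arrays, and overlapped at IONT 24 h and IONC 12 h. The difference at IONT 7 d was -1.23 ± 0.35 (SE), with a limma adjusted p of 0.0762, and 0.000852 without IONC 12 h replicate 2. The 5 other Kcnc2 probe sets differed there by -1.19, -0.70, -0.24, 0.38 and 0.08, with averages of 3.10, 4.15, 3.13, 2.40 and 2.98 over all arrays, and none was called with all arrays.

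Kcna2 encodes Kv1.2, a potassium channel beside the nodes of myelinated axons. Its mean lay below naive in 11 of 11 comparisons, with differences of -0.72 to -0.13. The signal was 9.84 to 10.01 in naive replicates 1 to 3 and 8.84 to 9.39 at IONT 48 h. That difference of -0.72 ± 0.28 (SE) had a limma adjusted p of 0.237, and 0.0046 without IONC 12 h replicate 2. In naive replicates 4 and 5 Kcna2 read 9.24 and 9.37, below the other naive arrays.

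Kcnd2, the gene of the A-type channel Kv4.2, read 3.49 to 4.53 in the naive arrays and 2.99 to 3.22 at IONT 3 d, 7 d and 15 d. The differences there were -0.94, -0.85 and -0.95, and none was called. Its partner protein Kcnip2 (KChIP2), which binds Kv4 channels and slows their inactivation, was not among the 70. The Kcnip2 signal was 6.09 ± 0.27 (SD, n = 5) in the naive arrays and was called lower in 10 of 11 comparisons. The difference was -1.13 ± 0.19 (SE) at IONT 12 h (limma adjusted p 0.000548) and -1.85 ± 0.19 at IONT 48 h (6.18e-07). The exception was IONT 24 h, where the Kcnip2 difference of -0.81 had a limma adjusted p of 0.0722.

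Kcnip2 was 1 of 14 genes in a list of Kv accessory proteins, of which 2 (Kcnip2 and Dpp10, which also binds Kv4 channels) were called lower after IONT and 1 (Kcnip2) after IONC. Without IONC 12 h replicate 2 these counts were 4 and 1. Dpp10 averaged 2.39 ± 0.43 (SD, n = 5) in the naive arrays, near the floor. Of 15 inward rectifier genes Kcnj8, which encodes Kir6.1 and was at 2.24 ± 0.01 (SD, n = 5) in the naive arrays, also near the floor, was called higher at IONT 15 d (0.84), and Kcnj14, which encodes Kir2.4, was lower at IONT 48 h (-1.37), IONC 12 h (-1.64) and IONC 24 h (-1.30). None of 13 axon initial segment and node proteins, 7 calcium-activated, 11 two-pore and 7 ClC channel genes was called with all arrays. Without IONC 12 h replicate 2, 1 initial segment or node gene was called lower and 1 ClC gene higher after each lesion. None of the calcium-activated and two-pore genes was. In that fit 17.5% of all genes were called after IONT and 11.7% after IONC. The numbers with an unadjusted limma p under 0.05 in at least 1 of 11 comparisons were 8, 4, 7 and 4. The share of all genes by this count was not computed, but at IONC 12 h alone 46.4% of all genes had such a p.

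Kcnv2 was called at a single time. It encodes Kv8.2, a silent subunit of the potassium channel in photoreceptor inner segments, which forms no channel alone. Its signal was 10.32, 10.37 and 10.40 in naive replicates 1 to 3 and 11.10, 11.72 and 11.68 at IONT 7 d, without overlap. It was 10.71, 10.37 and 9.94 at IONT 12 h and 10.65, 10.43 and 10.78 at IONT 48 h. In the other set it was 10.33 and 10.67 in naive replicates 4 and 5, 10.36 and 10.42 at IONT 24 h, 9.95 and 10.03 at IONT 3 d, and 10.39 and 10.14 at IONT 15 d. After IONC it was 10.57, 9.44 and 10.32 at 12 h, 10.82, 10.57 and 10.72 at 24 h, 10.45, 10.22 and 10.50 at 48 h, 10.62, 10.68 and 10.47 at 3 d, and 10.91, 10.54 and 10.60 at 7 d. The IONT 7 d arrays were the highest of all 35. All arrays of IONT 48 h and of IONC 24 h, 3 d and 7 d also lay above naive replicates 1 to 3, with Kcnv2 differences of 0.26, 0.34, 0.23 and 0.32 that were not called.

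The Kcnv2 difference at IONT 7 d was 1.14 ± 0.21 (SE), with a limma adjusted p of 0.00293 and a 95% interval of 0.70 to 1.58. From IONT 12 h to 7 d Kcnv2 rose by 1.16 ± 0.21 and was the 1 member called, where 1.73% of all genes were called. Without IONC 12 h replicate 2 the members called in that contrast were Kcnv2, higher, and Scn1a, lower, where the background was 6.86%. At IONC 7 d the 95% interval of the Kcnv2 difference from naive was -0.12 to 0.76. IONC minus IONT at 7 d was -0.82 ± 0.21, with a limma adjusted p of 0.211, and 0.016 without IONC 12 h replicate 2, so it was not called. The second Kcnv2 probe set, at 3.17 on average, was 0.40 higher at IONT 7 d and was not called. The summed signal of 9 rod markers was 16.76 to 16.92 at IONT 7 d and 16.83 to 16.86 in naive replicates 1 to 3, and 0 of them were called there.

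The remaining potassium channel members did not pass the test. Kcnh2, which encodes the ERG1 channel, was above naive on average in 11 of 11 comparisons, by 0.06 to 0.79, with a lowest limma adjusted p of 0.0949. Kcnh6 differed by -0.20 to 0.52, Kcna5 by -0.49 to 0.36 (-0.27 to 0.36 without IONC 12 h replicate 2) and the silent subunit gene Kcns3, at 2.74 on average, by -0.77 to 0.01. Of the Kv7 genes, whose channels carry the M current, Kcnq5 differed by -0.27 to 0.72 and Kcnq3 by -0.06 to 0.33, both near the floor. Both upper values were at IONC 12 h, and without replicate 2 the ranges were -0.27 to 0.45 for Kcnq5 and -0.06 to 0.13 for Kcnq3.

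With all 35 arrays Cacnb2 was called in 2 comparisons with naive, more than any other member, while without IONC 12 h replicate 2 Scn1a was called in 5, Scn2a in 3 and Cacnb2 in 2. It encodes the beta2 subunit, which brings the L-type calcium channel of photoreceptor terminals to the membrane. Its signal was 10.50, 10.51 and 10.50 in naive replicates 1 to 3 and 10.36 and 10.53 in naive replicates 4 and 5. After IONT it was 9.90, 10.01 and 9.98 at 12 h, 10.14 and 10.28 at 24 h, 9.76, 9.56 and 9.66 at 48 h, 9.93 and 10.20 at 3 d, 9.89, 10.12 and 10.19 at 7 d, and 10.38 and 10.51 at 15 d. After IONC it was 9.34, 9.07 and 9.70 at 12 h, 10.10, 9.85 and 10.20 at 24 h, 9.86, 10.08 and 10.11 at 48 h, 10.36, 10.58 and 10.28 at 3 d, and 9.90, 10.39 and 10.42 at 7 d. The lowest array (9.07) and the lowest group mean were at IONC 12 h, and the groups overlapped with naive at IONT 15 d and IONC 3 d.

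Cacnb2 fell by 0.84 ± 0.14 (SE) at IONT 48 h, with a limma adjusted p of 0.00049. At IONC 12 h the Cacnb2 difference was -1.13 ± 0.14, with a limma adjusted p of 8.69e-06, and -0.98 with 5.45e-05 when replicate 2 was left out. From IONC 12 h to 7 d Cacnb2 rose by 0.86 ± 0.14 and was the 1 member called (limma adjusted p 0.00112), where 0.732% of all genes were called. Without IONC 12 h replicate 2 the members called in that contrast were Cacnb2, higher, and Scn1a, lower, at a background of 0.802%. The other 2 Cacnb2 probe sets differed by -1.18 and -1.15 at IONT 48 h and by -1.95 and -1.38 at IONC 12 h, and were called in 1 and 2 comparisons with naive. IONC minus IONT at 12 h was -0.59 ± 0.14, with a limma adjusted p of 0.0165, and 0.107 without IONC 12 h replicate 2.

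Photoreceptor markers were low in the same arrays. From a list of 9 rod genes, 4 were called lower at IONT 48 h and 6 at IONC 12 h, or 5 at each without IONC 12 h replicate 2. The log2 of their summed signal was 16.39 to 16.52 and 16.11 to 16.41, against 16.83 to 16.86 in naive replicates 1 to 3. The summed signal of 7 cone markers was 10.43 to 10.55 at IONT 48 h and 9.85 to 10.56 at IONC 12 h, against 11.25 to 11.43. The part of this shift in the Cacnb2 difference was not tested. Cacna1f, which encodes the pore of that L-type channel, differed from naive by 0.24 at IONT 48 h and by -0.35 at IONC 12 h (0.00 without replicate 2) and was not called.

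Cacng3 encodes the transmembrane AMPA receptor regulatory protein gamma3, which is related to calcium channel gamma subunits but traffics glutamate receptors. It read 6.84, 7.21 and 6.84 in naive replicates 1 to 3 and 5.92, 4.86 and 6.60 at IONC 12 h. The difference of -1.17 ± 0.28 (SE) was called (limma adjusted p 0.00829) and rested on replicate 2. Without that array it was -0.70, with a limma adjusted p of 0.0605. Cacng2 differed from naive by -0.53 to 0.35 and Cacnb3 by -0.59 to 0.03, and neither was called. The alpha2delta3 gene Cacna2d3, at 6.47 on average, differed by -0.43 (IONC 12 h, 0.09 without replicate 2) to 0.55 and was not called. Of the HCN genes, whose channels open on hyperpolarization, Hcn2 differed from naive by -0.20 to 0.57. Hcn3 and Hcn4 differed most at IONC 12 h (1.17 and 1.2, or 0.13 and 0.01 without replicate 2), and no HCN gene was called.

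Cacnb4, the gene of the beta4 subunit, was called at IONT 24 h. It read 4.84 and 5.04 there and 3.73 and 3.75 in naive replicates 4 and 5, a difference of 1.2 ± 0.12 (SE) with a limma adjusted p of 9.43e-07. The SE used the spread shared by all groups, most of them near the floor for this gene, and each side held 2 arrays. Of 49 alternatives 1 lost the call, with a limma adjusted p of 0.116. All arrays of IONC 24 h (2.57, 2.60 and 2.57) and naive replicates 1 to 3 (2.66, 2.76 and 2.61) were near the floor. IONC minus IONT at 24 h was -1.30 ± 0.15 (limma adjusted p 3.35e-05), and Cacnb4 was the 1 member called there, where 0.12% of all genes were called. The -1.30 came mainly from the rise at IONT 24 h, as the IONC 24 h difference from naive was -0.1. On the IONC side naive and lesion arrays alike were near the floor, and the naive sets differed in Cacnb4 by -1.06. The value therefore does not show that the response to crush differed from that to transection. Cacnb4 was also the 1 member called between the lesions at any of 5 times, where 1.96% of all genes were called, and 3.19% without IONC 12 h replicate 2. From IONT 24 h to 15 d Cacnb4 fell by 1.45 ± 0.12 and was the 1 member called, where 1.89% of all genes were called. In all 8 arrays of this set, naive and lesioned, Cacnb4 read 3.33 or more, and in the other 27 arrays 3.07 or less.

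The split by array set was wider in Cacna1h, Kcna1 and Cacna2d1 than any difference between a lesion and naive among the 70 members. Comparing naive replicates 1 to 3 with naive replicates 4 and 5, 6 members were called, all lower in replicates 1 to 3, where 5.18% of all genes were called. The differences were -3.32 ± 0.31 (SE) for Cacna1h, -3.22 ± 0.26 for Kcna1, -2.60 ± 0.50 for Cacna2d1, -1.59 ± 0.31 for Cacna1b, -1.52 ± 0.24 for Cacna1f and -1.06 ± 0.11 for Cacnb4. When IONC 12 h replicate 2 was left out the count was 7, with Kcnc1 (-0.89) added, where 11.9% of all genes were called.

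The lesion arrays followed the naive arrays of their set. Cacna1h, the gene of the T-type channel Cav3.2, read 5.55 to 7.16 in the 8 arrays with the larger β-actin difference and 2.13 to 3.26 in the other 27. Kcna1, which encodes Kv1.1, read 6.45 to 7.15 in the 8 and 2.62 to 4.33 in the 27. Cacna2d1, the gene of the alpha2delta1 subunit that gabapentin binds, read 8.12 to 8.69 in the 8 and 3.60 to 6.51 in the 27. Cacna1f read 9.78 to 10.65 in the 8 and 7.62 to 9.53 in the 27. Cacna1b, the gene of the N-type channel, read 4.08 to 5.16 in the 8 and 2.29 to 3.52 in the 27. The 8 arrays and the 27 did not overlap in these 5 genes. Against their own naive arrays Cacna1h, Kcna1, Cacna2d1, Cacna1f and Cacna1b were not called at any time. The split moved with the 3′ to 5′ difference of β-actin, and the part of that in the levels was not tested.

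**Figure D4:**
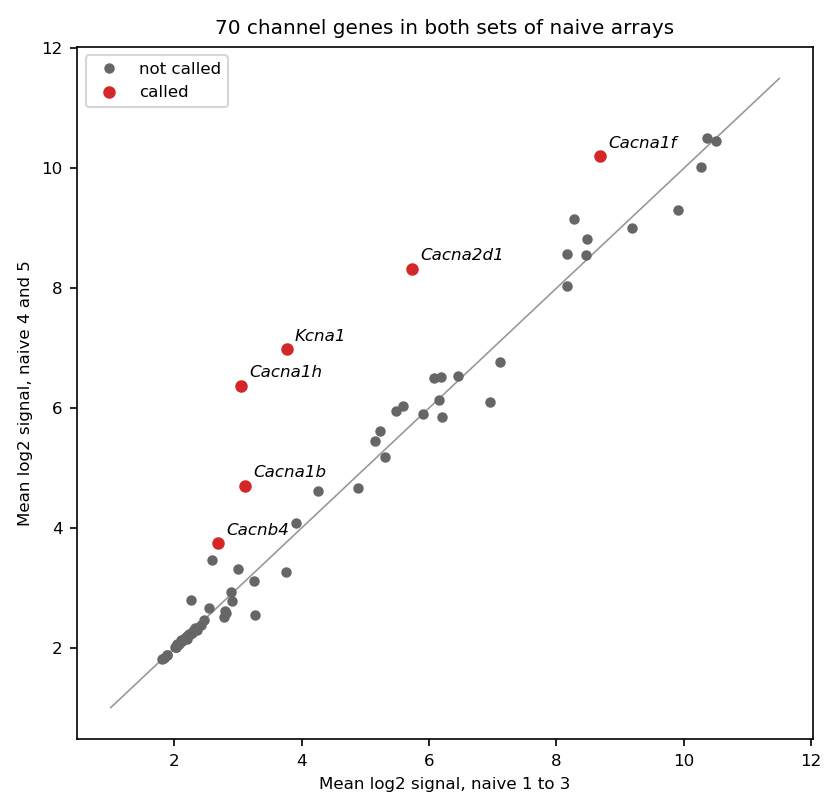
Mean log2 signal of each of the 70 channel genes in naive replicates 1 to 3 (horizontal axis) and in naive replicates 4 and 5 (vertical axis), with the line of equal values and the 6 called genes in red. Cacna1h lies at 3.05 and 6.37 and Kcna1 at 3.76 and 6.99, far above the line.

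Across the 28 members above 4, the median difference from naive was -0.21 at IONT 12 h, -0.24 at IONT 48 h and -0.33 at IONT 7 d, against -0.01, -0.03 and -0.08 for 9383 genes above 4. At IONT 24 h, 3 d and 15 d it was -0.01, -0.01 and 0.02, against 0.06, 0.07 and 0.15. IONC gave medians of 0.01 (24 h), -0.10 (48 h), -0.25 (3 d) and -0.20 (7 d), against -0.02, 0.00, -0.07 and -0.03. At IONC 12 h it was -0.45 against -0.38, and -0.06 against 0.01 without replicate 2. At IONT 7 d 22 of the 28 members lay below naive (78.6%), as did 61.7% of the 9383 genes.

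**Figure D5:**
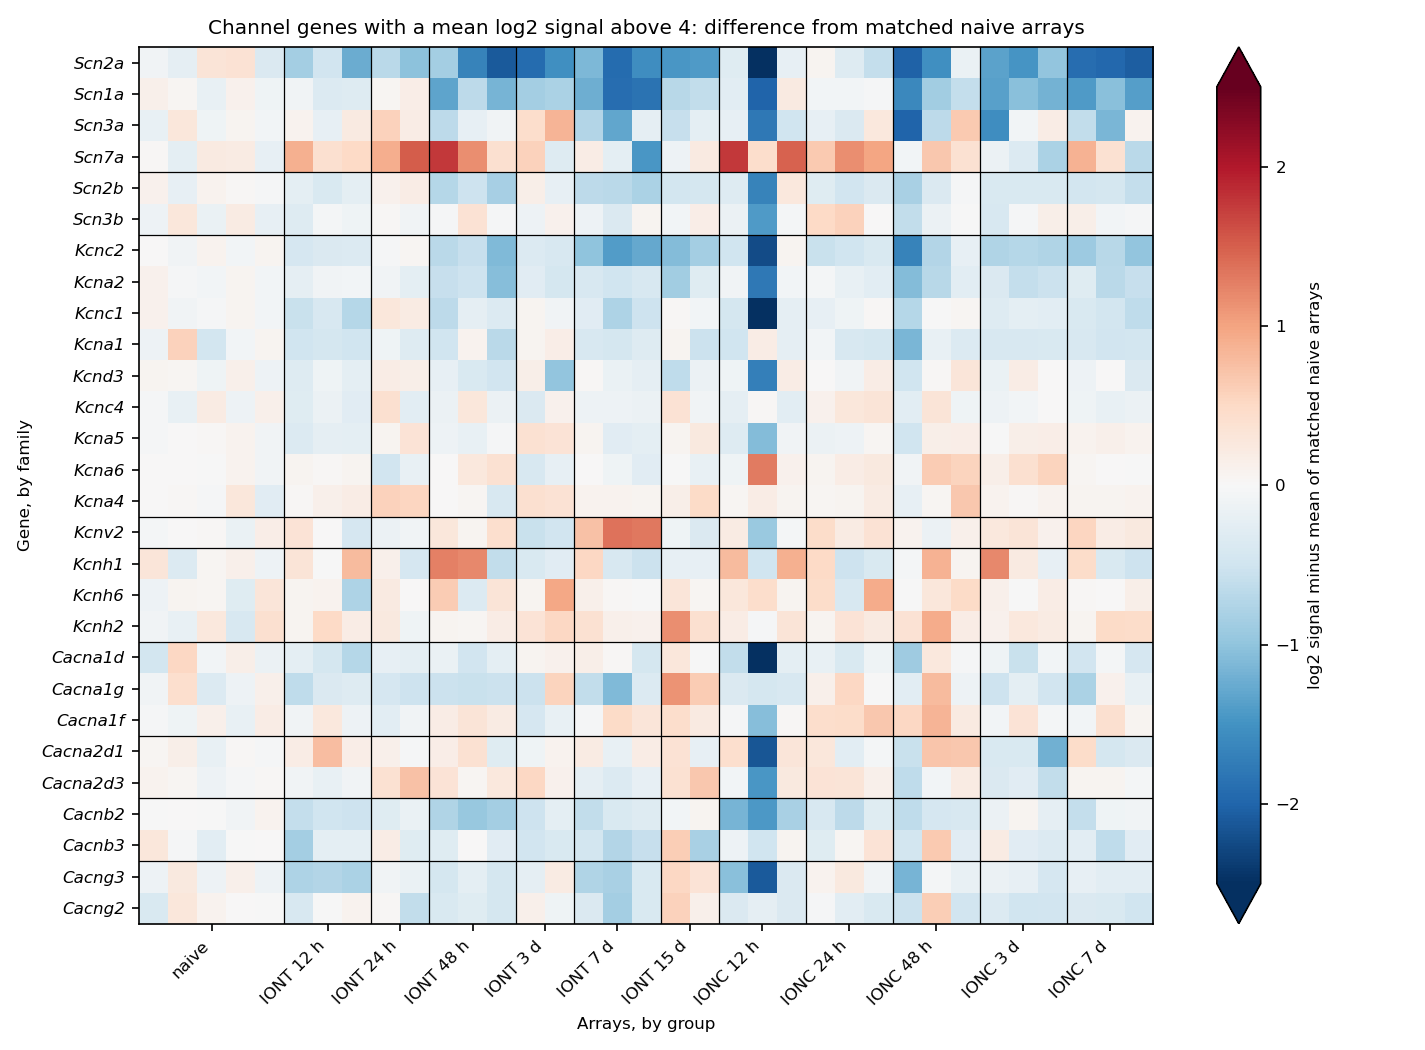
Log2 signal minus the mean of the matched naive arrays for the 28 channel genes with a mean above 4 (rows, ordered by family) in all 35 arrays (columns, by group), blue lower and red higher, with values beyond 2.5 in either direction shown in the end colour. Scn2a and Scn1a are blue in most arrays from 48 h on, Kcnv2 is red at IONT 7 d, and the middle column of IONC 12 h, replicate 2, is dark across many genes.

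The promoters of 4 members are shown because the results turn on these genes and their base composition differs. The RefSeq promoter table used here (assembly GRCr8) holds an entry for 49 of the 70 members, each with 250 bases before the start site taken there and 50 after. In the 4 genes shown that site lies inside the span of the gene in RefSeq, past its outer end. The table has no entry for Scn1a. Motifs were searched on both strands and are in capitals. Each member was counted with 1 entry, while the background counts every entry, where a gene may have several. The GC box (GGGCGG) occurs in 30 of the 49 members (61.2%) and in 33.1% of all 33469 promoters, and the right part of the RE1 element of the neuronal repressor REST (GGACAGC) in 8 of 49 (16.3%) and in 6.59%. The CRX element of photoreceptors (TAATCC) occurs in 1 of 49 (2.04%) and in 7.17%, and the TATA box (TATAAA) in 2 of 49 (4.08%) and in 14.2%.
Scn2a (chr3:70710706-70711005, plus strand): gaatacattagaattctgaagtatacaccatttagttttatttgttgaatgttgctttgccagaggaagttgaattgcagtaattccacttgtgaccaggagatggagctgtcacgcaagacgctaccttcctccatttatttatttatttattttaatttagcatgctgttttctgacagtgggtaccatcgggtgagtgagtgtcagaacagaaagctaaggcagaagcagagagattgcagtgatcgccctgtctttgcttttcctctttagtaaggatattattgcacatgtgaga
Kcna2 (chr2:197393280-197393579, plus strand): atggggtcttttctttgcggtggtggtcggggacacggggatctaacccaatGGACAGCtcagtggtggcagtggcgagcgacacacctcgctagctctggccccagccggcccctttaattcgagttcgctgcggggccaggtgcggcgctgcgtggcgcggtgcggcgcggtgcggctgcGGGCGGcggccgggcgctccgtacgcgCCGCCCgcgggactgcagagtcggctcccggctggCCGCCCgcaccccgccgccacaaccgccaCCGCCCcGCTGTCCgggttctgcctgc
Cacnb2 (chr17:82472965-82473264, plus strand): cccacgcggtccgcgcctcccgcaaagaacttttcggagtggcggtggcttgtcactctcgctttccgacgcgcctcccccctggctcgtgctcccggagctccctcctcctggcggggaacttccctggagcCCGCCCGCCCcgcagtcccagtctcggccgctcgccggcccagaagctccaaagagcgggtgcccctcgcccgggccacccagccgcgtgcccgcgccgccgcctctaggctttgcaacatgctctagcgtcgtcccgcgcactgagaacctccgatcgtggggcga
Kcnv2 (chr1:234412924-234413223, plus strand): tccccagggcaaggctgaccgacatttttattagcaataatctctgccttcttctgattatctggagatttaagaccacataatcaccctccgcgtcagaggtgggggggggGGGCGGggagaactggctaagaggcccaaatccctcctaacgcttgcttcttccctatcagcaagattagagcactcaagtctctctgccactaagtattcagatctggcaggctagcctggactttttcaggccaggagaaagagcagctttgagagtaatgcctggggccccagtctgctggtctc
The Scn2a window holds none of these motifs and its GC content is 39.3%. Kcna2 holds 4 GC boxes and 2 copies of the right part of the RE1 element. The full element was not searched. Cacnb2 (71.7% GC) holds 2 overlapping GC boxes, and Kcnv2 (52.3% GC) 1 GC box. A match shows the letters and no binding.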

How the data were processed

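The authors hybridised RNA from pooled retinas to Affymetrix RAE230.2 arrays and deposited GCRMA values, log2 signals of probe sets. GCRMA corrects background, normalizes by quantiles and summarizes probes. Which releases of GCRMA and limma the authors ran was not stated in the sources read. The values were used as deposited. The table holds 31099 probe sets. Of these 57 control probe sets were left out, and 31042 were tested. Gene symbols are those of the platform annotation of 2016, in which 20826 probe sets carry 1 symbol. All 70 members matched the RefSeq gene table by gene number.

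A linear model with 1 coefficient per group, with naive replicates 1 to 3 and naive replicates 4 and 5 as separate groups, was fitted to the 35 arrays. The tools were R 4.3.3, its package limma 3.58.1 and, for the block, statmod 1.5.0. Calls used the thresholds of the study's methods. The change of each lesion was taken against its own naive arrays, and IONC minus IONT is the difference of those changes. The array sets were told apart in an earlier analysis by the 3′ to 5′ difference of β-actin, not by a label. The members and lists were chosen with earlier results of these data known. Named were the members called in any comparison with naive or between lesions, the member of each family with the highest naive signal, the 2 of each family with the largest absolute mean change, and the 12 members called in most comparisons with naive, ties by mean change. Other channel genes were named where called in at least 3 of 11 comparisons. Kcna1, Kcnc1, Dpp10, Kcnj8 and the named marker genes were named after their values were seen. Figures were drawn with matplotlib 3.10.9. The procedure was tested on simulated data. Their noise was drawn without the spread of the IONC 12 h group. The simulation therefore does not show how the fit to all 35 arrays behaves with that spread. The alternatives were another naive reference, separate fits, a low-signal filter, other call rules, trended robust moderation, array weights, a replicate block, median centring, cyclic loess, averaged probe sets of a gene, and leaving out each array. The precision is limited by 2 or 3 arrays per group.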

Additional observations from a re-analysis of the deposited data

Results flagged for a closer look

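Among 15 members examined for an array apart in the 5 naive arrays, Cacnb2 and Kcnv2 had 1. The gap of that array to its neighbour, divided by the range of the 5, was 0.795 for Cacnb2 (naive replicate 4, lowest at 10.36) and 0.77 for Kcnv2 (naive replicate 5, highest at 10.67), above the limit of 0.71. For arrays of a single set chance gives about 1 such group in 20. The 5 naive arrays come from both sets, so that rate does not strictly hold for them. For Cacnb4 at 24 h IONC minus IONT was -1.30 (limma adjusted p 3.35e-05), which compares arrays of both sets, each against its own naive arrays. On the IONC side lesion and naive arrays alike were near the floor, and the naive sets differed in Cacnb4 by -1.06. The value therefore does not show that the response differed between the lesions.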

How the results depend on the processing

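None of 30 differences recomputed under the alternatives reversed its direction. Many alternatives could not reverse one. They changed only the call rule, the moderation or the probe sets tested, or left out an array of another group. The 30 were the differences called with all arrays or without IONC 12 h replicate 2. Of their values, 1329 of 1448 kept direction and side of the threshold, 64 lost the call and 55 gained it. The Cacng3 call at IONC 12 h was lost in 38 of 49 alternatives and the Scn1a call at IONT 7 d in 7, with limma adjusted p up to 0.0506. Leaving out 1 array at a time gave 2 to 8 members called after IONT (4 with all arrays), 1 to 5 after IONC (2), 1 to 2 between lesions (1), 2 to 6 over time (3), 4 to 7 between naive sets (6) and 2 to 9 other channel genes (4). The highest counts after IONT came without IONC 12 h replicate 2. Pooling the 5 naive arrays gave 6 members between lesions and 9 other channel genes. Separate fits gave 2 after IONT, 1 after IONC, 0 between lesions and 2 other channel genes, and testing only probe sets above 4 gave 2 other channel genes. An adjusted p under 0.05 without B gave 2 between lesions, 5 over time and 10 other channel genes. Trended robust moderation gave 1 after IONC. Array weights gave 11 after IONT, 12 after IONC, 4 between lesions, 10 over time and 22 other channel genes. Median centring gave 11 after IONT and 8 other channel genes, cyclic loess 7, 1 after IONC and 9 other channel genes, and averaging the probe sets of a gene 4 after IONC. Leaving out IONC 12 h replicate 2 with trended robust moderation, chosen after seeing the data, gave 8, 4 and 8 other channel genes. The array set as a term with 5 naive arrays is algebraically the fit used. The cause of these shifts was not tested.

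The replicate number as a block gave 1 member after IONC (Cacnb2) in place of 2 and moved no other count by more than 1.5 times. Numbers did not pair the arrays. Same-numbered arrays had a median correlation of deviations of 0.0249 over 108 pairs, against -0.00922 over 216 pairs of different number, and the block correlation was -0.0119.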
